A study of Mus musculus with 6 samples.

Results

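The beta 1 integrin subunit and the alpha subunits that join it to bind collagen (alpha 1 and alpha 2), laminin (alpha 3 and alpha 6) or VCAM1 (alpha 4) were followed through the genes Itgb1, Itga1, Itga2, Itga3, Itga6 and Itga4. These genes were taken by subunit and ligand class, read from the gene symbols, and not by their measured values. They are 6 of the 84 wound healing genes of a PCR array and 6 of its 11 integrin genes.

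The expression data came from primary fibroblasts of neonatal C57BL/6 mice, used between passages 3 and 5, with 3 control arrays and 3 arrays of cells treated with 2,4-dermatan sulfate (DS), a sulfated glycosaminoglycan purified from an ascidian. According to the methods, the cells were of dermal origin, the monolayer was scratched, and simple DMEM was given to the control group and DS at 50 µg/mL to the treated group. Mitomycin C, which stops proliferation, was present in both groups, so that neither group stands for dividing cells. The methods give an incubation of 48 h, whereas the labels name 24 h of DS in the sample source and 72 h in the protocol, with DS dilutions from 10 to 1000 µg/mL that are not tied to single samples. The results section of the paper dates the comparison to the day after wounding. The series describes the groups as biological triplicates, and which mice or litters gave each culture was not stated in the sources used here.

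Integrins are receptors made of an alpha and a beta subunit that span the cell membrane, hold the cell to its matrix and pass signals to the cytoskeleton in both directions. The beta 1 subunit pairs with many alpha subunits, and the alpha subunit sets which ligand is bound. In skin, alpha 1 beta 1 and alpha 2 beta 1 are among the collagen receptors of fibroblasts, alpha 3 beta 1 binds laminins of the basement membrane, alpha 6 is best known in keratinocytes, where it joins beta 4 in hemidesmosomes, and alpha 4 beta 1 binds VCAM1 and fibronectin and is a classical receptor of leukocytes. An alpha 1 or alpha 2 chain reaches the cell surface only in a pair with a beta 1 chain.

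Each value is a CT, the number of PCR cycles a well needed for its fluorescence to pass a set threshold, so that more template gives an earlier CT and a 2-fold difference moves it by 1 cycle at full efficiency. A CT over 36 counts as not detected. Of the 6 integrin genes, 2, 1 and 2 had a CT at or under 36 in control replicates 1, 2 and 3, and 4, 4 and 3 did in DS replicates 1, 2 and 3. The same count over all 89 gene assays was 26, 25 and 25 in control and 60, 60 and 58 in DS, so that detection was wider in DS across the whole array and not only among these integrins. Changes between the groups are taken within a gene, because assays differ in amplicon and efficiency and their levels are not on a common scale. Where the CT of 2 assays in 1 array are set against each other, the difference in cycles is given as such and ranks no levels.

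Several wells that report on the arrays themselves differed between the groups. The genomic DNA control gave no CT in control, whereas DS replicates 1, 2 and 3 gave 33.08, 34.02 and 33.78. Wells of the reverse transcription control, which hold the same assay, differed by 15.3 cycles in control replicate 1 (2 of 3 wells with a CT), by 10.1 and 12.1 cycles in DS replicates 1 and 3 (3 of 3 wells) and by 1.37 cycles in DS replicate 2 (2 of 3), and all wells of the positive PCR control were without a CT. Among the housekeeping genes, Actb gave 13.05, 11.55 and 12.01 in DS and no CT in control. B2m gave 22.04, 21.91 and 19.89 in DS and also no CT in control. Gapdh had no CT in any array, and Gusb had a CT only in DS replicate 3, at 41.10. Hsp90ab1 gave 27.91, 28.03 and 27.00 in control against 28.00, 27.95 and 28.04 in DS. Well 2 of the reverse transcription control went from 22.74, 21.68 and 23.00 in control to 39.69, none and 41.00 in DS. The part of these differences in the integrin values was not tested. Each difference between the groups rests on the wells of all arrays standing in the same order in the deposited table, which was not tested either.

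The label of the cells was checked against marker genes. The fibroblast collagens Col1a1, Col1a2 and Col3a1 were undetected in each control array, 0 of 3, and all 3 were detected in every DS array. Their summed level relative to the normalizing genes Hsp90ab1, Ccl7 and Egfr (2 to the power of the difference in CT) was 154, 214 and 244 in DS, a sum over assays that need not be on a common scale. Of the 9 collagen genes on the array, 3 others were detected in every control array: Col5a2 at 23.76, 24.05 and 23.31, Col4a3 at 22.23, 21.92 and 22.63, and Col4a1 at 32.45, 33.00 and 32.77.

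The collagen receptor subunit alpha 1 is encoded by Itga1 (NM_001033228). Itga1 had CT values of 26.57, 27.30 and 26.00 in the DS arrays, and none of the 3 control arrays gave a CT for it. All DS arrays were high and all control arrays undetected, so the groups did not overlap. The mean CT in DS was 26.6 ± 0.652 (SD, n = 3). Its difference from the genomic DNA control of the same array was −7.00 ± 0.68 cycles (SD, n = 3), between 2 unlike assays.

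The other collagen binding alpha subunit, alpha 2, is encoded by Itga2 (NM_008396). Its CT was 35.80, 36.01 and 34.28 in control and 19.68, 17.98 and 18.02 in DS. Every DS array was earlier than every control array, and the control values lay at the edge of detection, with control replicate 2 over the cutoff. The mean CT was 35.4 ± 0.944 (SD, n = 3) for the control group and 18.6 ± 0.97 (SD, n = 3) for the DS group. Against the genomic DNA control of the same DS array the Itga2 CT differed by −15.07 ± 1.45 cycles (SD, n = 3), again between unlike assays.

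Itga1 and Itga2 lie next to each other on chromosome 13, on the same strand, and no annotated gene of the RefSeq table lies wholly between them. All 6 integrin genes matched that table (build GRCm38.p6) by accession, and 5 of them had a promoter sequence there. Because both neighbours were higher in DS and Itga4 was lower, the 250 bases before the start of each are shown, 5′ to 3′ on the strand of the gene. They lie at chr13:115101965-115102214 on the minus strand for Itga1, at chr13:114932101-114932350 on the minus strand for Itga2, and at chr2:79255176-79255425 on the plus strand for Itga4. Capitals mark a GC box.
Itga1 promoter: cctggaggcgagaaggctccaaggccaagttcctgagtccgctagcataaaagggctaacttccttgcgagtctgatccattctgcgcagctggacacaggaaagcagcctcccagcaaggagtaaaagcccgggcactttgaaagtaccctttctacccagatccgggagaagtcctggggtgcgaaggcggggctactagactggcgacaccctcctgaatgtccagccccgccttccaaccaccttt
Itga2 promoter: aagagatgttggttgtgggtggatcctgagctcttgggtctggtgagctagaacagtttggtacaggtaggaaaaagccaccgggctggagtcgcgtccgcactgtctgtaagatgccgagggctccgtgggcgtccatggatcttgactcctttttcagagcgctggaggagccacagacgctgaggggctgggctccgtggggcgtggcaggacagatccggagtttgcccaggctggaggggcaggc
Itga4 promoter: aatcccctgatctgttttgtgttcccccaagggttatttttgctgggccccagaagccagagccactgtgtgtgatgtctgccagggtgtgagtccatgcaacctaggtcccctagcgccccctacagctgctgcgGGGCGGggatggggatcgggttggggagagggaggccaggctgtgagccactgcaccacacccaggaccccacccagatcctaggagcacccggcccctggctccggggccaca

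Each window was searched on both strands for 3 motifs, the GC box GGGCGG, the AP-1 motif TGANTCA and the TATA box TATAAA, whose letters do not overlap in any of the windows shown. The Itga1 and Itga2 windows held none of the 3, and the Itga4 window held 1 GC box and neither of the others. Over 32851 promoters of the same length in the table, 32.7% held a GC box, 6.75% the AP-1 motif and 12.4% the TATA box. The Itgb1 window (chr8:128685404-128685653, plus strand) held 1 GC box, and the windows at the 2 starts of Itga3 held 3 and 1. A match or its absence describes these windows only and says nothing of a bound factor.

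The VCAM1 and fibronectin binding subunit alpha 4 is encoded by Itga4 (NM_010576). Its CT was 24.03, 23.88 and 23.74 in control and 26.53, 25.04 and 26.33 in DS. Itga4 was the only gene of the 6 detected in all 6 arrays, and its latest control value came before its earliest DS value, so that the groups did not overlap. The means were 23.9 ± 0.145 (SD, n = 3) and 26.0 ± 0.809 (SD, n = 3), so that the DS arrays also varied more. DS replicate 2 lay closest to the control arrays.

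The common partner beta 1 is encoded by Itgb1 (NM_010578). Itgb1 gave no CT in the 3 control arrays and CT values of 35.50, 34.80 and 36.03 in the DS arrays. Every DS well thus gave a CT and no control well did, but DS replicate 3 lay over the cutoff of 36 and counts there as undetected, so that the groups overlapped at this cutoff only through that replicate. The mean CT in DS was 35.4 ± 0.617 (SD, n = 3), and in the 3 DS arrays it came 2.42, 0.78 and 2.25 cycles after the genomic DNA control. That control is a different assay, so the order of the 2 wells does not show what the Itgb1 signal came from. According to the methods, RNA was treated with DNase. The part of genomic DNA in this well was not tested.

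The laminin binding subunits alpha 3 and alpha 6 are encoded by Itga3 (NM_013565) and Itga6 (NM_008397). Neither gene gave a CT in any of the 6 arrays. They have no fold change, and a difference between the groups was not detectable with these assays.

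**Figure D1:**
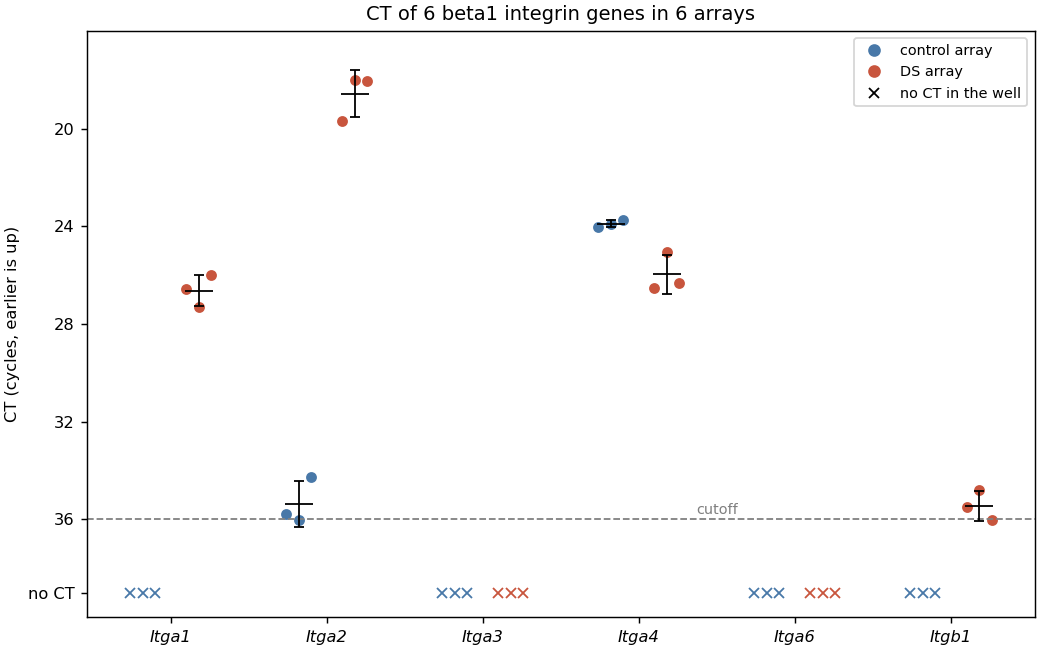
CT of the 6 integrin genes in each control array (blue) and DS array (red), with earlier cycles toward the top; crosses are wells without a CT, the dashed line is the cutoff of 36, and black bars are the mean and SD of groups with 3 CT values. Itga2 moves from the cutoff to a mean CT of 18.6, Itga1 appears only in DS, Itga4 is later in DS, and Itgb1 lies at the cutoff.

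For the comparison of the groups, a CT over 36 or absent was set to 36 and subtracted from the array's mean over the CT of the study's normalizing genes (Hsp90ab1, Ccl7, Egfr). The result, −ΔCT, is on a log2 scale, and the log2 fold change is its mean in DS minus its mean in control. The 64 wound healing genes that were detected in 1 array or more were fitted together with limma, and the adjusted p is over all 64. The paper states that its software picked the normalizing genes automatically, as genes with stable expression across these groups. They are thus no independent correction. The median log2 fold change was 4.40 with them and 4.41 without normalization. Ccl7 and Egfr are also among the 64 tested genes. Of the 6 integrin genes 4 entered the test, and a gene found only in DS could enter it only through the group in which it was high.

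Of these 4, 2 were called higher in DS (Itga2 and Itga1), 1 was called lower (Itga4) and 1 was not called (Itgb1), with 1 higher and 3 lower when Actb and Gapdh were the normalizing genes, 2 and 2 with the 5 housekeeping genes, and 3 and 0 with the median of the assays measured in all arrays. Over all 64 tested genes 71.9% were called higher and 20.3% lower, and the groups did not overlap for 93.8% of them, against 3 of the 4 integrin genes. The median log2 fold change was 4.96 over the 4 integrin genes and 4.40 over the 64 genes, both with bounds included. In bulk RNA, fewer cells of a type and less RNA per cell cannot be told apart.

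Itga2 had −ΔCT values of −5.43, −5.65 and −4.10 in control and 10.60, 12.31 and 12.28 in DS. By limma the log2 fold change came to 16.79 with a standard error of 0.59 (adjusted p = 1.27e-08), about 113000-fold at full efficiency, taken against control wells at the limit of detection. The value was 4.90 with Actb and Gapdh as normalizing genes. The methods' t-test after Benjamini-Hochberg did not call Itga2 (adjusted p = 0.0502), with a value of 16.81. Itga2 had rank 5 of the 64 genes with bounds placed at the cutoff, an order that other cutoffs change: without a cutoff the value of Itga1 (18.37) is above that of Itga2 (16.79). The exact permutation test gave its smallest two-sided p, 0.1, for 3 arrays against 3.

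Itga1 had −ΔCT values of 3.71, 2.99 and 4.30 in DS, against −5.63, −5.65 and −5.82 for the cutoff in the control arrays. With control placed at the cutoff limma gave 9.37 on the log2 scale, with a standard error of 0.38 (adjusted p = 2.78e-08), or 660-fold, with this value at rank 17 of 64, and the exact permutation p was 0.1. The control side is the cutoff and not a measurement, so the standard error holds no spread of Itga1 among control arrays, and a gene seen only in DS could not be called lower with these normalizing genes. The value follows these choices: it was 8.37 with a cutoff of 35, 18.37 with no cutoff and wells without a CT set to 45 cycles, 1.74 for the 5 housekeeping genes and −2.52 for Actb and Gapdh.

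Itga4 had −ΔCT values of 6.34, 6.47 and 6.44 in control and 3.75, 5.25 and 3.97 in DS. By limma it fell by 2.09 with a standard error of 0.43 (adjusted p = 0.00141) on the log2 scale, a size of 4.27-fold, with rank 52 of 64 and an exact permutation p of 0.1. The median of the assays measured in all 6 arrays, taken as reference, ended this call and turned its sign (0.86, adjusted p = 0.147, limma, in a range from 6.27e-09 to 0.147 over its limma alternatives).

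Itgb1 had −ΔCT values of −5.22, −4.51 and −5.70 in DS, against the same cutoff values as Itga1 in control. Its standard error and p values therefore hold no spread of Itgb1 among control arrays. Its difference was 0.56 (standard error 0.37, adjusted p = 0.176, limma) with rank 48 of 64 and an exact permutation p of 0.3, so that it was not called at the cutoff of 36. This depends on the cutoff: the value was 0.06 and not called at 35, and it was called higher at 40 (4.55) and with no cutoff (9.55). Without DS replicate 3, whose CT lay over the cutoff, the value was 0.84. It passed the threshold (adjusted p = 0.0464, limma, in a range from 2.07e-08 to 0.836 over its limma alternatives). The lowest p of this range came with a lower call, at −11.33, when Actb and Gapdh normalized the arrays. Normalizing to all 5 housekeeping genes also called Itgb1 lower (−7.07), whereas the median reference called it higher (3.51). Over the 6 arrays left out in turn the value ran from 0.24 to 0.84. The beta 1 assay thus gave CT values near the limit of detection in the same DS arrays in which both collagen binding alpha subunits were detected in every well.

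The authors' deposited group averages of 2 to the power of −ΔCT carry no spread. They were 0.0285 in control and 3290 in DS for Itga2, and 0.0183 and 12.3 for Itga1. For Itga4 the authors' averages were 81.2 and 19.4, and for Itgb1 they were 0.0183 and 0.0274. The value 0.0183 is shared by the control averages of Itga1, Itga3, Itga6 and Itgb1, none of which had a CT in control.

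**Figure D2:**
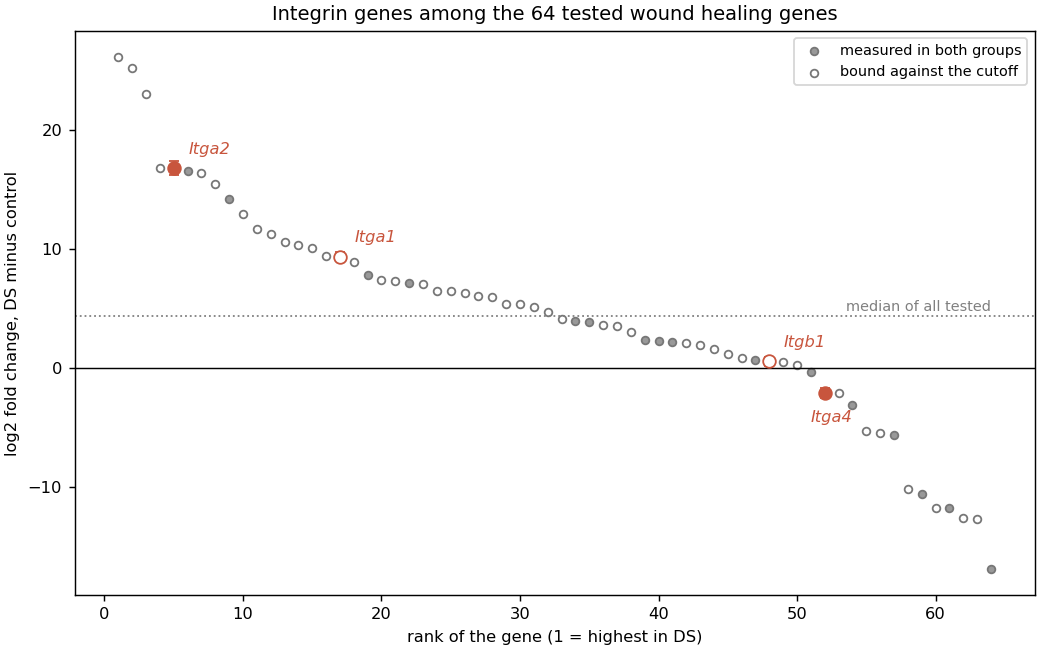
Log2 fold change (DS minus control, vertical axis) of the 64 tested wound healing genes against their rank (horizontal axis), with the 4 tested integrin genes in red with their standard error; open circles are bounds against the cutoff and filled circles were measured in both groups. Itga2 (16.79) and Itga1 (9.37) lie above the dotted median of all tested genes (4.40), and Itgb1 (0.56) and Itga4 (−2.09) lie below it.

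A change of normalizing genes shifts every gene of an array by the same amount, so the order of the integrin values and their distance from the other genes, with bounds at the cutoff, do not depend on it. Relative to the median of all tested genes, Itga2 was higher by 12.39, Itga1 was higher by 4.97, Itgb1 stood at −3.84 and Itga4 at −6.49 on the log2 scale under each of 7 normalizations. The median itself was 4.40 with the study's normalizing genes, 4.76 with Hsp90ab1, 4.22 with Ccl7 and Egfr, 4.41 without normalization, 7.35 with the median of the assays measured in all arrays, −3.23 when the 5 housekeeping genes were used and −7.49 when only Actb and Gapdh were. Calls over the 64 genes moved with it, from 46 higher and 13 lower to 52 and 10 with the median reference, 17 and 39 for the 5 housekeeping genes, and 10 and 52 for Actb and Gapdh.

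Itga2 was higher in DS under all 7 normalizations, down to 9.17 for the 5 housekeeping genes and 4.90 for Actb and Gapdh. Itga1 stood at 1.74 for the 5 housekeeping genes and turned to −2.52 with Actb and Gapdh. Itga4 was lower under 6 of the 7, down to −13.98 with Actb and Gapdh. Itgb1 ran from −11.33 with Actb and Gapdh to 3.51 with the median reference. Actb and B2m were themselves undetected in control, and Gapdh and Gusb in all arrays. Of the 5 housekeeping genes only Hsp90ab1 was therefore measured in control. Values with Actb and Gapdh or with the 5 housekeeping genes are thus set against the cutoff on both sides and are no bounds.

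**Figure D3:**
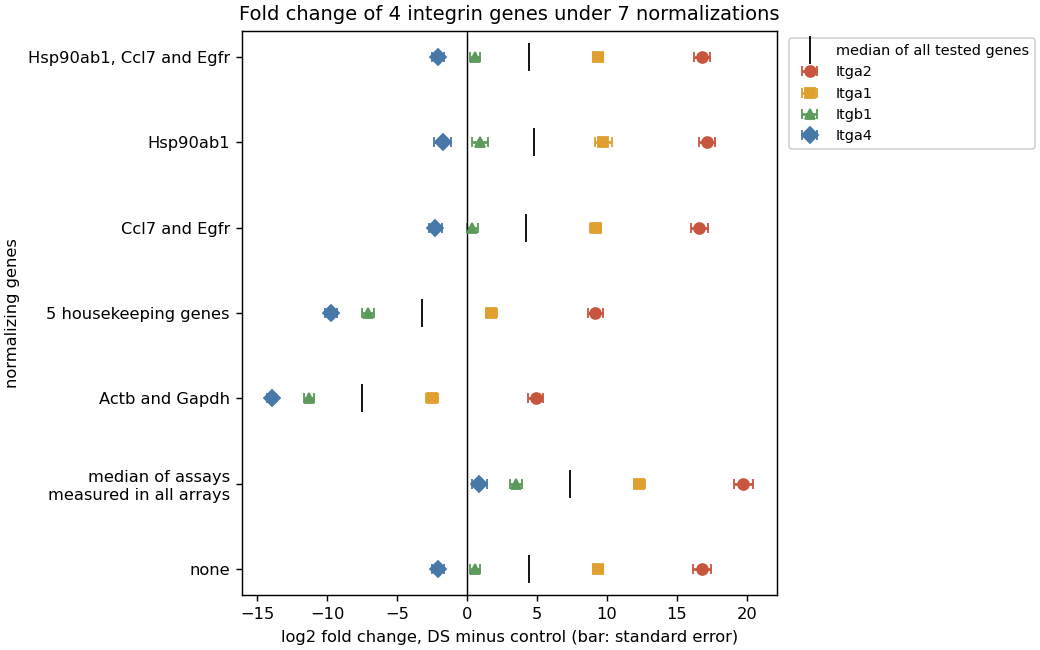
Log2 fold change (DS minus control, horizontal axis, bars are standard errors) of Itga2, Itga1, Itgb1 and Itga4 under 7 choices of normalizing genes (vertical axis), with the median of all tested genes as black ticks. The 4 genes keep their order and their distance from the median, while zero falls at different places among them; Itga2 runs from 4.90 to 19.74.

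A difference between genes within an array needs no normalizing gene. Itga2 and Itga4, a collagen and a VCAM1 binding subunit, were the only pair with a CT at or under 36 in both groups. The Itga2 CT minus the Itga4 CT was 11.77, 12.12 and 10.54 cycles in control, where the Itga2 CT of replicate 2 was set to 36, and −6.85, −7.06 and −8.31 cycles in DS. Itga2 came later than Itga4 in every control array and earlier in every DS array. The mean difference was 11.48 ± 0.83 (SD, n = 3) for control and −7.41 ± 0.79 (SD, n = 3) for DS, a change of −18.88 cycles with an exact two-sided permutation p of 0.1, the smallest possible, over 1 pair. It shows an unequal change of the 2 genes and not that either was unchanged.

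Within the DS arrays the other genes could also be set against each other, as differences between wells and not as levels, here with each CT as measured, also the 36.03 of Itgb1 over the cutoff. The Itgb1 CT was later than the Itga2 CT by 15.82, 16.82 and 18.01 cycles, and later than the Itga1 CT by 8.93, 7.50 and 10.03 cycles. These differences kept their sign in all 3 arrays. The Itga4 CT minus the Itga1 CT was −0.04, −2.26 and 0.33 cycles, with a mean of −0.66 ± 1.40 (SD, n = 3), so these wells did not differ beyond the spread between arrays. The control arrays give no such values for Itga1 and Itgb1.

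**Figure D4:**
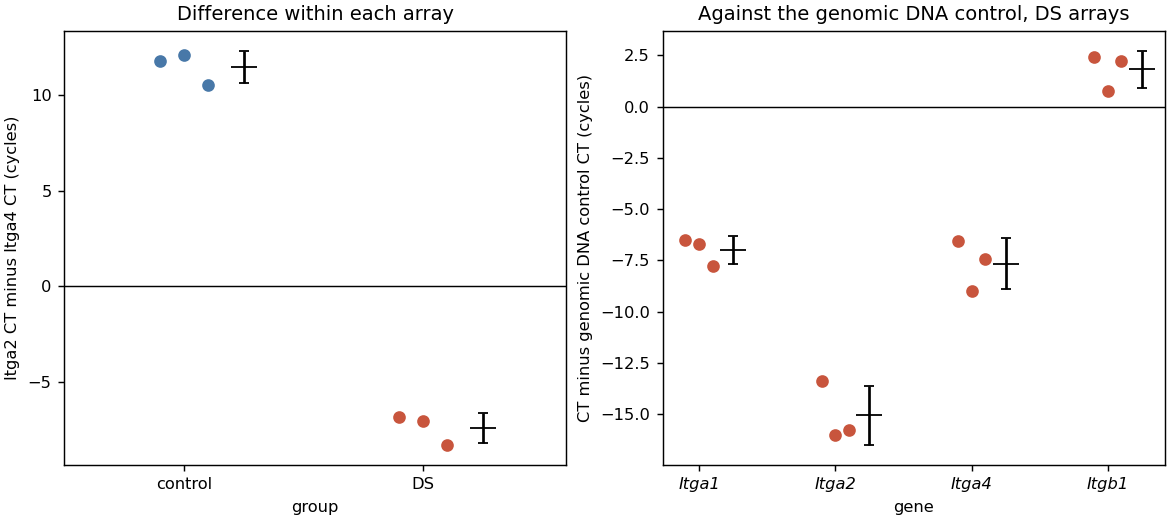
Left, Itga2 CT minus Itga4 CT in each control array (blue) and DS array (red), in cycles; right, CT of 4 integrin genes minus the CT of the genomic DNA control in the same DS array, in cycles; black bars are the mean and SD of 3 arrays. The Itga2 and Itga4 difference changes sign between the groups (11.48 to −7.41), and only Itgb1 lies after the genomic DNA control (1.82 cycles).

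The gene assays most like each integrin gene were found by the root mean square difference of −ΔCT over the 6 arrays, each gene centred on its own mean. For Itga1 these were F3 at 0.18 cycles, Fgf2 at 0.84 and Il1b at 0.84, and for Itga2 they were Cxcl1 at 0.59, Stat3 at 0.61 and Mapk3 at 1.18. Itga4 was closest to Il4 at 0.49, Ccl7 at 1.03 and Itga5 at 1.13, and Itgb1 to Mmp7 at 0.05, Plau at 0.35 and Col14a1 at 0.38. Most of these genes had no CT in control or, for Il4, none in DS, so that wells set to the cutoff make up much of the likeness. Ccl7 is itself a normalizing gene, and Mmp7 and Itgb1 both lay near the cutoff in every DS array.

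The array has 5 other integrin genes. Of the 3 that entered the test, 2 were higher in DS and 1 was lower, against 1 higher and 2 lower with the 5 housekeeping genes or with Actb and Gapdh and 2 and 0 with the median reference, beside 71.9% higher and 20.3% lower over all tested genes. Itga5, the alpha partner of beta 1 in the fibronectin receptor, had a log2 fold change of −3.11 (adjusted p = 0.000224, limma), not called with the median reference. Itgav, which also pairs with beta 1, was called higher with a bound of 1.96, which turned to −5.66 and −9.93 with the 2 sets of housekeeping genes. Its CT minus that of the genomic DNA control was 1.32, −0.01 and −0.10 cycles in the DS arrays, a difference between 2 assays, and the part of genomic DNA in this well was not tested. Itgb6 had no CT in control and entered the test only through DS. It was called higher with a bound of 26.18, at rank 1 of the 64 genes, and stood at 14.29 with Actb and Gapdh. The median log2 fold change of the 3 genes was 1.96, beside 4.96 for the 4 genes above and 4.40 for all tested genes.

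Of 10 genes for matrix ligands of integrins, the 9 collagens and vitronectin, 9 were tested, and 7 were higher and 2 lower (6 and 2 for Hsp90ab1 alone and for Ccl7 and Egfr, 2 and 7 for the 5 housekeeping genes, 1 and 7 for Actb and Gapdh), with a median of 2.17. The shares over all tested genes were 71.9% higher and 20.3% lower. Collagen genes accounted for all 7 that were higher. Col1a1 and Col1a2, whose products form the collagen I bound by alpha 1 beta 1 and alpha 2 beta 1, had bounds of 11.31 and 12.93, which became −0.58 (not called) and 1.04 for Actb and Gapdh. Of the basement membrane collagens, Col4a3 was lower at −10.61 and Col4a1 was higher at 2.39, the latter turning to −5.24 for the 5 housekeeping genes and −9.50 for Actb and Gapdh. Genes for laminin, fibronectin and VCAM1 are not among the 89 gene assays used here.

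Of 9 genes for signalling and cytoskeleton that act under integrins (Actb counted above as a housekeeping gene), 7 were tested, and all 7 were higher, against 4 higher and 1 lower for the 5 housekeeping genes, and 3 and 4 for Actb and Gapdh. Their median was 10.37, beside 4.40 and 71.9% called higher over all tested genes. None of the 7 had a CT in control, so each is a bound, entered the test only through DS, and could be called in no other direction with the study's normalizing genes. They include the small GTPases Rhoa and Rac1, which shape the actin cytoskeleton. Rhoa had a bound of 10.37, which turned to −1.52 for Actb and Gapdh. Rac1 had a bound of 6.00, which turned to −1.62 for the 5 housekeeping genes (not called) and to −5.89 for Actb and Gapdh.

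Of the genes listed as epithelial, contractile or lymphocyte markers, those that were tested also moved with the groups. Cdh1, Acta2, Actc1 and Il2 were not detected in any array and were not tested. By limma 1 epithelial gene of 1 tested and 1 contractile gene of 1 were called higher, under all 7 normalizations. Both, Itgb6 and Tagln, had no CT in control and entered the test only through DS, so that with the study's normalizing genes neither could be called lower. Of 3 lymphocyte genes tested, 2 were called higher and 1 lower, against 0 and 2 for the 5 housekeeping genes, 0 and 3 for Actb and Gapdh, and 3 and 0 for the median reference, beside 71.9% higher and 20.3% lower over all tested genes. Of the epithelial markers Itgb6 and Cdh1, Itgb6 was detected in each DS array, with a summed level of 1240000, 1680000 and 1510000 relative to the normalizing genes, and 0 of 2 were detected in control, while Cdh1 was over the cutoff in DS and without a CT in control. Of the contractile markers Tagln, Acta2 and Actc1, only Tagln was detected, in DS alone (Actc1 was over the cutoff and Acta2 had no CT), with a summed level of 75600, 321000 and 209000. Of the lymphocyte markers, 2 of 4 were detected in every array, Ifng and Il4 in control and Ifng and Cd40lg in DS. Their sum, over assays that need not be on a common scale, was 2.09, 1.26 and 2.4 in control and 151, 628 and 180 in DS. Il2 had no CT anywhere, Cd40lg none in control and Il4 none in DS. The part of these markers in the integrin values was not tested.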

How the data were processed

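RNA of 3 control and 3 DS cultures was run on 1 PCR array of 96 wells each. The CT values deposited by the authors cover each well, called in the instrument software without normalization or cutoff, and their group averages of 2 to the power of −ΔCT, a ratio to Hsp90ab1, Ccl7 and Egfr with a CT cutoff of 36. Here the CT values were used: a CT over 36 or absent was set to 36, −ΔCT was taken against the arithmetic mean CT of the same 3 genes, and 64 genes were fitted with limma 3.58.1 (R 4.3.3; lmFit, eBayes), two-sided, Benjamini-Hochberg adjusted and called at 0.05. Exact permutation tests used Python 3.11.15. The fit was tested on simulated data with equal spread for all genes and no wells set to the cutoff, which does not cover the bounds. Genes without a CT at or under 36 in a group have a bound, and those in neither group were not tested. The precision is set by 3 arrays a group. Between any 2 arrays, 0 wells had an identical CT.

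The genes named are the 6 integrin genes, the other integrins, the control, housekeeping and normalizing assays, the collagens and vitronectin, 10 genes of signalling and cytoskeleton with Actb, the cell type markers, and the 3 tested assays most like each detected integrin gene. The 6 integrin genes were taken by subunit and ligand class, but earlier results of these data were known when genes and lists were chosen. The sums of marker levels were added after the values were seen. Promoter sequences are from RefSeq.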

Additional observations from a re-analysis of the deposited data

Results flagged for a closer look

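Some wells outside the comparison of the groups gave signals above their level in the control arrays. The genomic DNA control had a mean CT of 33.6 in the DS arrays and no CT in control. Well 1 of the reverse transcription control had a mean CT of 29.6 in DS and none in control, and well 3 had a mean of 32.1 in DS against a single CT of 38.03 in control. Well 2 of the same assay went the other way, with CT values of 22.74, 21.68 and 23.00 in control and 39.69, none and 41.00 in DS. Of the 6 integrin genes only Itgb1, at a mean CT of 35.4 in DS, came after the genomic DNA control, and the part of these signals in the integrin values was not tested.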

How the results depend on the processing

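Among alternatives with a test, Itga2 kept its direction and call in 18 of 19, with limma values from 4.90 to 19.74, Itga1 in 18 of 19, Itga4 in 19 of 20 and Itgb1 stayed uncalled with the same sign in 13 of 19, and the change of Itga2 against Itga4 within the array kept its sign in 9 of 9. With Actb and Gapdh as normalizing genes Itga1 turned to −2.52 and Itgb1 to −11.33, leaving 1 gene higher and 3 lower. With the 5 housekeeping genes Itgb1 turned to −7.07 and 2 genes were lower. With the median reference Itga4 turned to 0.86, 0 genes were lower, and Itgb1 passed the threshold at 3.51. A change of normalizing genes moves all genes together by construction, and the calls over all 64 genes were 10 higher and 52 lower, 17 and 39, and 52 and 10 under these 3 settings. Itgb1 also passed it with a CT cutoff of 40 (4.55) and with no cutoff (9.55), both of which set the control wells to a later cycle.

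With only genes detected in all 6 arrays, 16 genes were tested against 64 (8 higher, 6 lower), only Itga4 of the 6 integrin genes entered the test, 0 were higher, and Itga1, Itga2 and Itgb1 have no value. The methods' test without adjustment kept the call of Itga2, with 2 genes higher and, over the 64 genes, 36 higher and 9 lower. After Benjamini-Hochberg it called 1 gene higher, since Itga2, at 16.81, missed the threshold with an adjusted p of 0.0502, with 27 higher and 9 lower over the 64 genes against 46 and 13 with limma; the cause was not tested. Leaving out each array in turn gave 9.05 to 9.70 for Itga1, 16.50 to 17.36 for Itga2, −2.56 to −1.80 for Itga4, 0.24 to 0.84 for Itgb1 (called without DS replicate 3), −19.35 to −18.43 cycles for Itga2 against Itga4, 2 to 3 genes higher and 1 to 1 lower.

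Replicate numbers gave no sign of pairing: deviations of same-numbered arrays over 17 genes correlated at 0.08, 0.05 and −0.20. No array correlated best with its own number. Differently numbered arrays ran from −0.34 to 0.36, so correlations over 17 genes cannot decide whether the cultures were paired. With a replicate block the values were 9.37, 16.79, −2.09 and 0.56 for Itga1, Itga2, Itga4 and Itgb1, no call among them changed, with 2 higher and 1 lower, and 45 genes in place of 46 were higher over all tested. CT values near the cutoff limit what can be said of Itgb1 and of Itga2 in control.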
